A study of Mus musculus with 7 samples.

Results

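The genes described here are 49 components of the Wnt signalling pathway: 19 ligands, 15 receptors and co-receptors, 10 secreted inhibitors and 5 feedback or target genes. They were found on a mouse expression array by gene name, over probes that are not controls. They make up 49 of the 27113 genes named on the array and take 61 of its 55681 distinct probes. Every cell came from C57BL6J mouse embryos with an Osr1-GFP knock-in, in which green fluorescent protein (GFP) reports Osr1, a transcription factor of the intermediate and lateral plate mesoderm. At embryonic day (E) 8.5, GFP-positive and GFP-negative cells were sorted from the embryo. At E9.5, the caudal part of the embryo gave 3 populations. Gated cells were GFP-positive, positive for the surface integrin Itga8 and negative for the receptor Pdgfra, other GFP-positive cells lay outside that gate, and the rest were GFP-negative. The same gate and its GFP-positive remainder were sorted at E11.5 from the metanephric mesenchyme, the tissue from which nephrons and renal stroma arise. The gate was meant to enrich nephron progenitors, and the cells outside it to stand for the mesenchyme around them. No agent was given to any group.

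Wnt proteins are lipid-modified secreted ligands that bind Frizzled receptors. With the co-receptors Lrp5 and Lrp6 they stabilise β-catenin, which then joins Tcf and Lef factors at target genes, and with Ror and Ryk receptors they act through β-catenin-independent branches such as planar cell polarity. In the developing kidney, Wnt9b from the ureteric bud and Wnt4 from the induced mesenchyme are needed for nephron formation, and Wnt11 from the bud tips for branching. Earlier in the embryo, Wnt3a maintains the tail bud and the formation of paraxial mesoderm.

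Each population had 1 array, made from 10 ng of amplified RNA, so a difference between populations had no replicate check and no test was run. Whether cells of several embryos were pooled is not given in the sources used here. A level is a probe's log2 signal, less the log2 value of its array's 75th percentile. A difference is the first level minus the second, and it was counted from 2-fold. Where the lower side did not stand well above background, it was set at the lowest level well above background on that array, and the fold is then written as "at least". Between 56.2% and 84.1% of the spots of an array were well above background, the extremes being E8.5 GFP-negative and E9.5 other GFP-positive cells. Of the 49 members, 40 to 47 were well above background on each array and 35 on all 7, and no member spot was saturated or flagged. Each member probe was spotted once. For the 399 probes spotted 10 times, the median standard deviation of replicate spots corresponded to 0.18 for a difference, with 0.11 at levels of -2 or more and 0.37 below that, which covers spot noise alone. At E9.5 the arrays of gated and of GFP-negative cells lay on 1 slide and the other 5 arrays on another, and the scan day followed the slide.

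The sorts were checked on the genes that defined them. Osr1 was not well above background in either GFP-negative population and was so on all 5 GFP-positive arrays. Itga8 was higher in the gate than outside it at both stages, with E9.5 levels of 2.15 inside and 0.20 outside and E11.5 levels of 2.82 inside and -1.31 outside. Pdgfra was lower in the gate, with -0.52 inside and 3.44 outside at E9.5, and with -5.92 (not well above background) inside and 4.04 outside at E11.5. Of 6 nephron progenitor markers, all were well above background in the gate at both stages and in E8.5 GFP-positive cells. All but Pax8 were also above background in other GFP-positive cells at both stages and in E9.5 GFP-negative cells. At both stages 4 of the 6 were at least 2-fold higher in the gate than outside it. Cited1 was lower in the gate at E9.5 (3.18 against 4.45). Of 6 renal stroma markers, Tbx18 and Twist1 were not above background in the E11.5 gate. Of 6 ureteric bud and nephric duct markers, 3 were above background in the E11.5 gate and 4 in the other E11.5 cells. Ret and Cdh1 were not above background in either, and Gata3 was not in the gate. RNA comes from whole sorted populations, so fewer cells that make a transcript and less transcript per cell cannot be told apart.

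The members differed widely in how far their levels spread over the 7 populations. The highest level was at least 4-fold over the lowest for 24 of the 49 members (49.0%), against 21.5% of the 24487 genes above background somewhere. The median range was 1.97 log2 units for members and 1.27 for those genes. By role, 8 of 19 ligands, 6 of 15 receptors, 6 of 10 inhibitors and 4 of 5 targets had such a range. The widest ranges belonged to the inhibitor Dkk1 (at least 105.2-fold), the receptors Fzd10 (48.3-fold) and Fzd9 (at least 32.0-fold), the ligand Wnt2b (at least 21.8-fold) and the receptor Fzd1 (21.2-fold). A further 11 members stayed within 2-fold over the 7 arrays: Wnt1, Wnt4, Wnt5a, Wnt6, Wnt7b, Wnt11, Fzd5, Lrp5, Lrp6, Ror1 and Notum. This holds for the probe used: second probes ranged over 1.21 log2 units for Wnt1, 2.06 for Lrp6, at least 3.73 for Fzd5 and at least 3.89 for Ror1. The 11 were 22.4% of the members. Of the 24487 genes, 33.8% had a range under 2-fold, but this share includes genes not well above background on every array, whose range can be a lower bound.

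**Figure D1:**
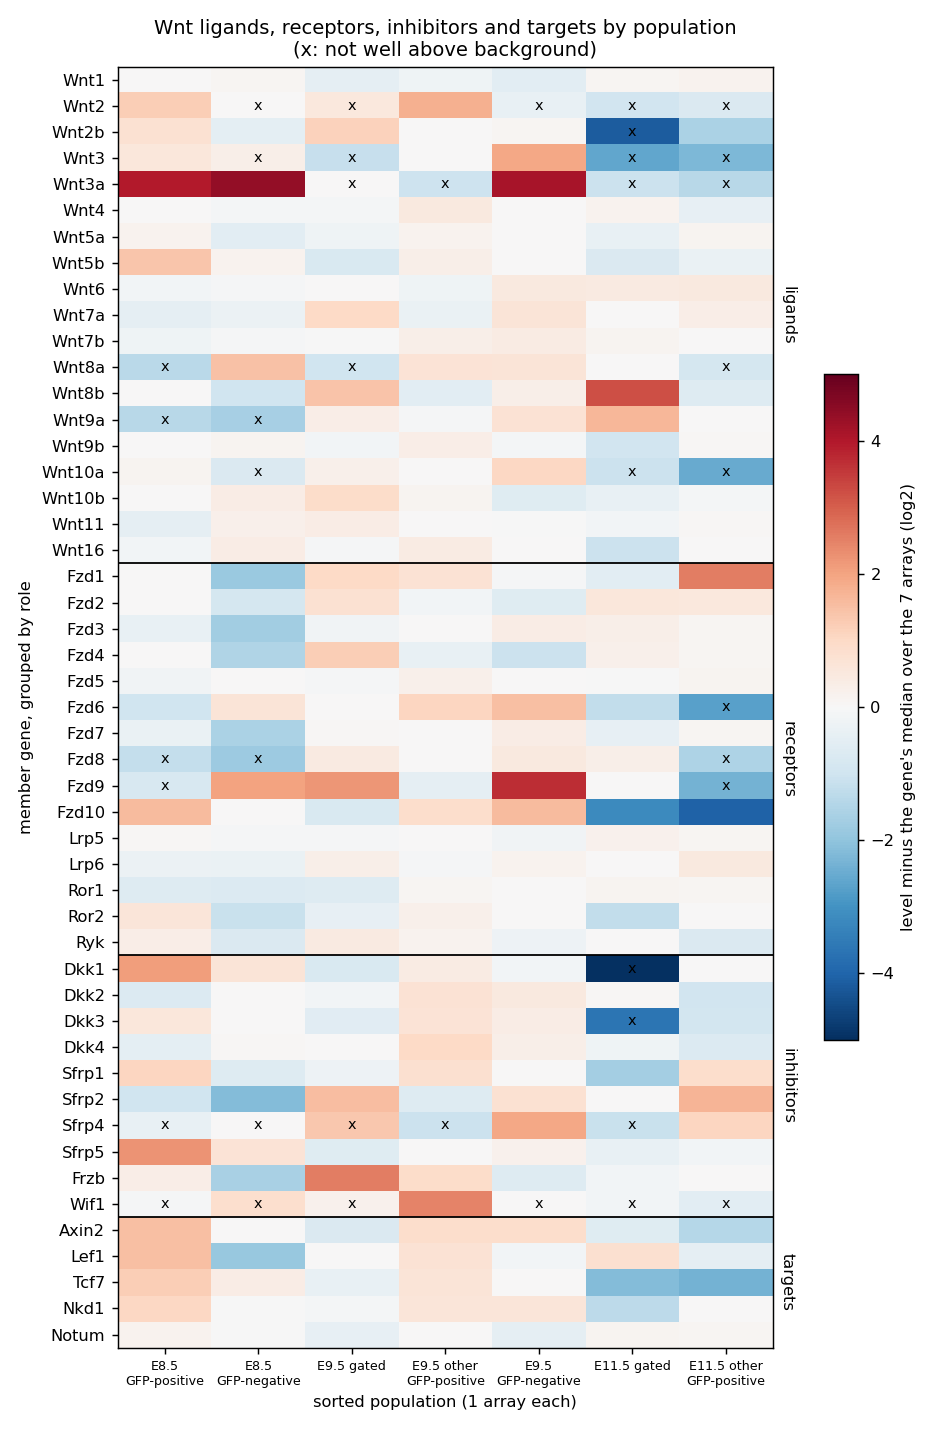
Level of each of the 49 members on each of the 7 arrays, drawn as the log2 level minus that gene's median over the arrays (colour scale from -5 to 5), grouped into ligands, receptors, inhibitors and targets. A cross marks a value not well above background. The darkest blue cells include Dkk1 and Wnt2b in E11.5 gated cells, and Lrp5 and Wnt7b are nearly white throughout.

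Values below are given for E8.5 in the order GFP-positive and GFP-negative, for E9.5 in the order gated, other GFP-positive and GFP-negative, and for E11.5 in the order gated and other GFP-positive. Levels belong to 1 probe each, so they are compared between arrays and not between genes.

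Among the ligands, Wnt2b, Wnt3a and Wnt8b spread most. Wnt2b, which acts through β-catenin, had levels of -1.07 and -2.30 at E8.5, -0.68, -1.82 and -1.73 at E9.5, and -5.97 and -3.40 at E11.5. The gate held its highest value at E9.5 and its lowest at E11.5, where it was not well above background. Wnt3a, the tail bud ligand, had levels of -1.63 and -1.22 at E8.5, -5.60, -6.63 and -1.46 at E9.5, and -6.68 and -6.99 at E11.5. It was thus well above background in both E8.5 populations and in E9.5 GFP-negative cells, and not in any GFP-positive population from E9.5 on. Wnt3, which is required for the primitive streak, stood at -3.57 and -3.84 at E8.5, -5.32, -4.15 and -2.22 at E9.5, and -6.74 and -6.40 at E11.5. Its values in E8.5 GFP-negative, E9.5 gated and both E11.5 populations were not well above background, and E9.5 GFP-negative cells had the highest.

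Wnt8b, known chiefly from the embryonic forebrain, had levels of -1.51 and -2.49 at E8.5, -0.09, -2.04 and -1.22 at E9.5, and 1.70 and -2.14 at E11.5. Gated cells stood above the other populations of their stage both times. A second Wnt8b probe did not repeat this at E9.5: it read -4.35 and -5.53 at E8.5, -3.90, -2.90 and -4.50 at E9.5, and -3.64 and -4.46 at E11.5, with 3 of these 7 values (both E8.5 populations and E9.5 GFP-negative cells) not well above background. The second probe lies in coding sequence, judged by an open frame and a stretch that Wnt genes share, and it is printed here with coding probes for Wnt4 and Wnt16, to show which part of each transcript was read. Capitals mark a stretch shared by Wnt family members, and positions are on mm9 (NCBI37), plus strand.
Wnt8b, second probe, chr19:44585759-44585818: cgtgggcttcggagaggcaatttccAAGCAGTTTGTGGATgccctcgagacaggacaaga
Wnt4, chr4:136851690-136852258 with an intron skipped: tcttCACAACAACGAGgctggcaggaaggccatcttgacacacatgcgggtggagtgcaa
Wnt16, probe used, chr6:22247804-22247863: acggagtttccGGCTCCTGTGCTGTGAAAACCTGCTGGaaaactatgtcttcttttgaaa
Wnt16, second probe, chr6:22241135-22241194: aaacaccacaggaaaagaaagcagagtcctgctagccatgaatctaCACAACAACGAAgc
The Wnt8b probe used for the values lies farther along, on chromosome 19 from 44588615 to 44588674.

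Wnt9a, a ligand of joint and limb development, had levels of -5.16 and -5.42 at E8.5, both not well above background, -3.47, -3.83 and -3.05 at E9.5, and -2.13 and -3.78 at E11.5. The E11.5 gate held its highest value. Wnt5b, a close relative of Wnt5a that acts largely without β-catenin, had levels of 5.15 and 3.94 at E8.5, 3.02, 4.07 and 3.77 at E9.5, and 3.06 and 3.42 at E11.5. It was highest in E8.5 GFP-positive cells, and the gate was lowest within each later stage. Wnt8a, a ligand of the primitive streak, read -5.56 and -2.74 at E8.5, -5.20, -3.51 and -3.58 at E9.5, and -4.21 and -5.10 at E11.5. E8.5 GFP-negative cells were highest, and E8.5 GFP-positive, E9.5 gated and E11.5 other GFP-positive cells were not well above background. Wnt10a, needed in skin appendages and teeth, read -3.94 and -4.79 at E8.5, -3.82, -4.06 and -3.04 at E9.5, and -5.15 and -6.57 at E11.5, with the E8.5 GFP-negative value and both E11.5 values not well above background.

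On the 1 probe that each had, the ligands of kidney induction varied little. Whether such flat signals read the transcripts was not tested. Wnt4 lay between -2.40 and -1.53 and Wnt11 between -1.93 and -1.10, ranges of 1.82-fold and 1.78-fold. Wnt9b lay between -3.58 in the E11.5 gate and -2.31 in E9.5 other GFP-positive cells, a range of 2.41-fold. Wnt5a, which drives axis elongation through Ror2, stayed between 2.56 and 3.27 (1.64-fold). The other ligands with ranges under 4-fold were Wnt1, Wnt2, Wnt6, Wnt7a, Wnt7b, Wnt10b and Wnt16, from 1.52-fold for Wnt7b to at least 2.94-fold for Wnt2, which was above background only in E8.5 GFP-positive and E9.5 other GFP-positive cells.

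Among the receptors, Fzd10 and Fzd9 had the widest ranges. Fzd10, a Frizzled of the neural tube and limb, had levels of 1.24 and -0.32 at E8.5, -1.07, 0.54 and 1.24 at E9.5, and -3.51 and -4.35 at E11.5. Both E11.5 populations lay below all 5 earlier ones. Fzd9, known from neural and muscle precursors, read -4.53 and -1.72 at E8.5, -1.53, -4.16 and -0.04 at E9.5, and -3.72 and -6.10 at E11.5. Its E8.5 GFP-positive and E11.5 other GFP-positive values were not well above background, and at E9.5 the gate lay above other GFP-positive cells and below GFP-negative cells. Fzd1, which can signal through β-catenin, had levels of 0.28 and -1.56 at E8.5, 1.30, 1.01 and 0.22 at E9.5, and -0.26 and 2.85 at E11.5. E11.5 cells outside the gate were highest and E8.5 GFP-negative cells lowest.

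Fzd6, a planar polarity receptor of skin and hair, read -3.61 and -1.95 at E8.5, -2.61, -1.52 and -1.09 at E9.5, and -3.84 and -5.34 at E11.5, the last not well above background. GFP-negative cells were above the GFP-positive cells of their stage. Fzd4, which also receives the ligand Norrin, had levels of -0.47 and -1.98 at E8.5, 0.75, -0.84 and -1.52 at E9.5, and -0.22 and -0.36 at E11.5. The E9.5 gate was highest. Fzd3, a partner of Fzd6 in planar polarity, had levels of -1.15 and -2.51 at E8.5, -0.95, -0.78 and -0.39 at E9.5, and -0.47 and -0.70 at E11.5, so that E8.5 GFP-negative cells stood apart at the low end. The co-receptors Lrp5 and Lrp6 ranged over 1.32-fold and 1.76-fold and Ror2 and Ryk over 3.58-fold and 2.26-fold.

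Fzd2 and Fzd7, closely related receptors that act redundantly in heart and palate, show how near these coding sequences are. Of 50 aligned bases of their coding probes, 42 (84.0%) were equal, and capitals mark the 8 that differ, on mm9, plus strand.
Fzd2, chr11:102467613-102467672: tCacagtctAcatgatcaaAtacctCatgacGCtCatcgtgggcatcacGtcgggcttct
Fzd7, chr1:59541367-59541426: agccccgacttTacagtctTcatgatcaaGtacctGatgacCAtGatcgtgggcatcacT
Values were taken from the brighter probe of each, which ranged over 3.11-fold for Fzd2 and 3.92-fold for Fzd7. How much of a signal on the coding probes came from the relative was not tested.

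Among the inhibitors, Dkk1 spread most of all members. Dkk1, which binds Lrp5 and Lrp6 and blocks the β-catenin branch, had levels of 1.60 and 0.14 at E8.5, -1.26, -0.11 and -0.64 at E9.5, and -5.47 and -0.51 at E11.5. It was well above background everywhere except in the E11.5 gate. Dkk3, a divergent relative, had levels of -1.07 and -1.63 at E8.5, -2.19, -0.94 and -1.25 at E9.5, and -5.30 and -2.55 at E11.5. It too was not well above background in the E11.5 gate, and the gate was lowest at E9.5. Sfrp1, a soluble Frizzled-related protein that binds Wnts, had levels of 1.14 and -0.56 at E8.5, -0.19, 0.88 and 0.07 at E9.5, and -1.61 and 0.94 at E11.5, with the gate lowest at both later stages.

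Sfrp2, a close relative of Sfrp1, did not share this order, with levels of 4.77 and 3.58 at E8.5, 7.31, 5.13 and 6.54 at E9.5, and 5.77 and 7.45 at E11.5. The gate was highest at E9.5 and lay under the other cells at E11.5. Frzb, the third of these Wnt-binding proteins to vary widely, had levels of -0.15 and -2.08 at E8.5, 2.09, 0.46 and -1.13 at E9.5, and -0.62 and -0.47 at E11.5, and was highest in the E9.5 gate. Sfrp5 had levels of 2.05 and 0.48 at E8.5, -0.80, -0.19 and 0.02 at E9.5, and -0.56 and -0.31 at E11.5, so that E8.5 GFP-positive cells were highest. Dkk2 and Dkk4 ranged over 3.24-fold and 3.20-fold. Wif1 and Sfrp4 were close to background: Wif1 was well above it on 1 array, E9.5 other GFP-positive (-4.07), and Sfrp4 on 2, E9.5 GFP-negative (-3.68) and E11.5 other GFP-positive (-4.55).

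Among the targets, the E8.5 GFP-positive array gave the highest value of each of the 5. Axin2, the scaffold of the β-catenin destruction complex and its feedback target, had levels of 3.22 and 1.72 at E8.5, 1.0, 2.61 and 2.59 at E9.5, and 1.10 and 0.28 at E11.5. At E9.5 the gate lay below both other populations. Lef1, a nuclear partner of β-catenin, had levels of 0.11 and -3.28 at E8.5, -1.41, -0.68 and -1.53 at E9.5, and -0.61 and -1.87 at E11.5, with E8.5 GFP-negative cells lowest. Tcf7, a related factor, had levels of 0.91 and 0.05 at E8.5, -0.69, 0.32 and -0.33 at E9.5, and -2.49 and -2.70 at E11.5. Both E11.5 values lay below the 5 earlier ones.

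Nkd1, an antagonist of Dishevelled, had levels of 0.92 and -0.13 at E8.5, -0.19, 0.52 and 0.49 at E9.5, and -1.42 and -0.11 at E11.5, and was lowest in the E11.5 gate. Notum, an enzyme that strips the lipid from Wnts, stayed between 1.87 and 2.52, and its E8.5 GFP-positive value exceeded that of the E11.5 gate (2.48) by less than the spot noise of a difference. The second probes of these genes did not all follow. For Axin2 the second probe read -2.03 and -1.60 at E8.5, -2.59, -2.28 and -1.99 at E9.5, and -2.96 and -3.75 at E11.5, so that E8.5 GFP-negative and not GFP-positive cells were highest. For Tcf7 the second probe read -1.57 in the E11.5 gate and -5.41, not well above background, in the other E11.5 cells, a difference of at least 3.47 against 0.22 for the probe used. On mm9 the Axin2 probe used lies on chromosome 11 from 108812034 to 108812093 and the second from 108803927 to 108803986. The Tcf7 probe used lies on chromosome 11 from 52066114 to 52066173 and the second from 52066738 to 52066797.

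**Figure D2:**
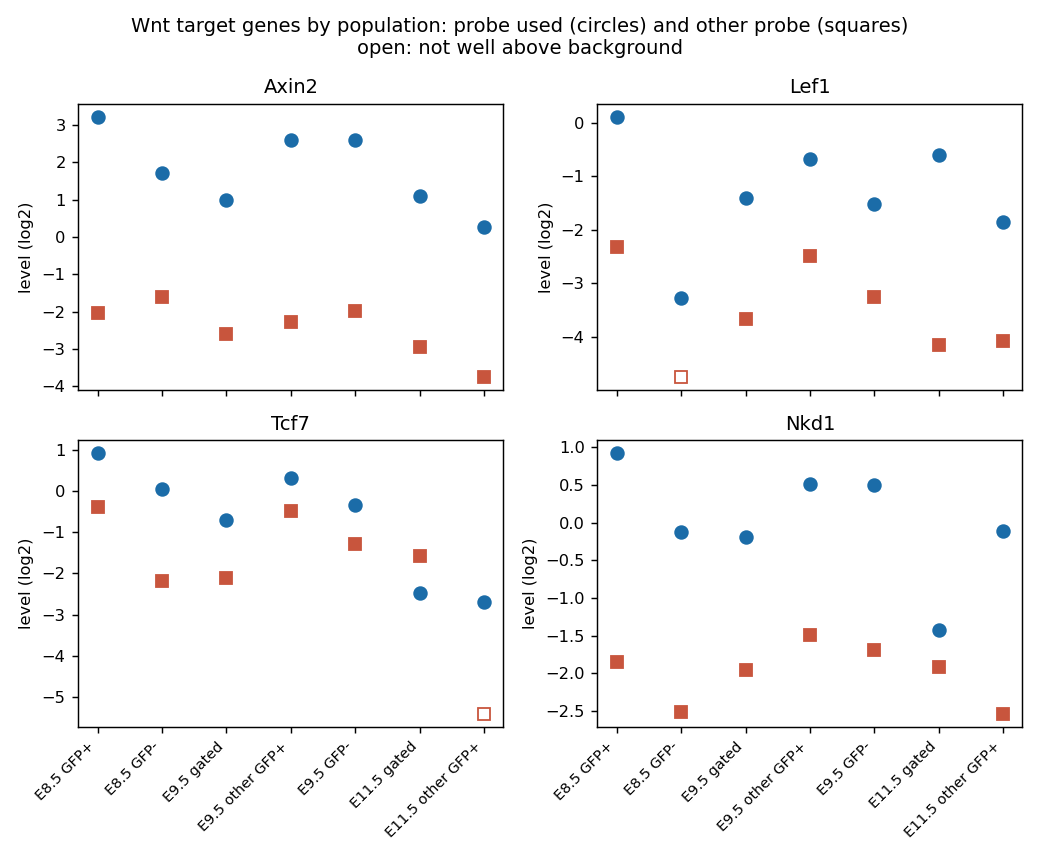
Level (log2) of 4 target genes on the 7 arrays, for the probe used (blue circles) and the second probe (red squares), with open symbols for values not well above background. The Tcf7 probe used gives nearly the same level in both E11.5 populations while the second probe does not, and both Axin2 probes are lowest in E11.5 other GFP-positive cells.

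Upstream sequence is shown for Dkk1, Fzd10 and Fzd1, which were among the 5 members with the widest ranges. The windows hold the 250 bases before the RefSeq start on GRCm38.p6, on the strand of the gene, and capitals mark CTTTGA or its reverse complement TCAAAG, the core that Tcf and Lef factors bind.
Dkk1, chr19:30549497-30549746, minus strand: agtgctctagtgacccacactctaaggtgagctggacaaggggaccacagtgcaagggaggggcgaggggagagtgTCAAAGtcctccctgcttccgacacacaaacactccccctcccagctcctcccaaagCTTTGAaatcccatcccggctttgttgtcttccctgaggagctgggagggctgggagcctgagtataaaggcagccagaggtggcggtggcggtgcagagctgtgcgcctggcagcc
Fzd10, chr5:128600856-128601105, plus strand: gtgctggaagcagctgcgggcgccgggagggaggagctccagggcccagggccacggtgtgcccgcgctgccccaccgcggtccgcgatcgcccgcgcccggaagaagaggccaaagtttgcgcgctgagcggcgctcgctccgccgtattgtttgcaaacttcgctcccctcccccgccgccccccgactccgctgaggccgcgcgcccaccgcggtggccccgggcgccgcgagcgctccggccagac
Fzd1, chr5:4758217-4758466, minus strand: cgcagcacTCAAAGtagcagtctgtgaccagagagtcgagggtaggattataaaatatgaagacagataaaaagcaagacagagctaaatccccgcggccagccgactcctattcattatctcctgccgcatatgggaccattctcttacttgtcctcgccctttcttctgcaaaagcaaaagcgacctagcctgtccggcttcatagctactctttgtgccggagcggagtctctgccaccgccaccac
Dkk1 had 2 matches, 174 and 117 bases before its start, Fzd1 had 1 at 242 bases, and these letters were not found in the Fzd10 window, nor in those of Fzd9 and Wnt2b, the other members of the 5, whose windows are not printed. At least 1 match was present in 13.8% of all 32851 windows of this length, in 7 of the 41 member windows (17.1%), and in 7 of the 34 members that had a window (20.6%). A match describes letters and is not evidence of binding.

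At E8.5, GFP-positive cells were set against GFP-negative cells to show what the early Osr1 domain expresses. Many Wnt receptors, inhibitors and targets stood higher in GFP-positive cells. Of the 45 measured members, 17 were at least 2-fold higher, against 7.03% of all measured genes, and 3 were lower, against 6.08%. The higher ones were 2 of 18 ligands, 7 of 14 receptors, 5 of 8 inhibitors and 3 of 5 targets. The median over members was 0.20 and that over all genes 0.00. Lef1 led with 10.5-fold, and the other higher targets were Axin2 (2.84-fold) and Nkd1 (2.07-fold).

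Frzb was 3.81-fold higher in E8.5 GFP-positive cells, Sfrp1 3.26-fold, Sfrp5 2.97-fold, Dkk1 2.74-fold and Sfrp2 2.28-fold. The higher receptors were Fzd1 (3.58-fold), Ror2 (3.26-fold), Fzd10 (2.96-fold), Fzd4 (2.85-fold), Fzd3 (2.56-fold), Fzd7 (2.35-fold) and Ryk (2.06-fold), and the higher ligands Wnt2b (2.35-fold) and Wnt5b (2.32-fold). In the other direction Fzd9 was at least 7.02-fold, Wnt8a at least 5.15-fold and Fzd6 3.15-fold lower. The E8.5 GFP-negative cells thus held more Fzd6 and Fzd9 and less of the other Frizzleds named. Of 59 other measured pathway genes, 13 were higher and 5 lower, with Rspo1, a secreted enhancer of Wnt signalling, at least 11.3-fold and the membrane inhibitor Apcdd1 at least 4.23-fold higher, and the transcription factor Sp8 4.49-fold lower. The GFP-negative array had the fewest spots above background, and 6 of 6 red cell markers were lower in GFP-positive cells, whose summed level was 2.65 against 11.02. Their part in the result was not tested. A second probe gave -0.44 for Axin2 where the probe used gave 1.51, and 0.66 for Nkd1 where the probe used gave 1.05. Bounds of at least 1.13 for Lef1 and 0.61 for Fzd7 came from second probes that were not well above background in GFP-negative cells. With the deposited table left unscaled, 63.7% rather than 53.6% of all genes past 2-fold were higher, and 20 and 3 members were higher and lower.

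At E9.5, gated cells were set against other GFP-positive cells to separate nephron progenitors from the mesenchyme around them. Of 15 receptors, 2 were at least 2-fold higher and 2 lower in the gate, and of 9 measured inhibitors 2 and 3. Of the 5 member targets, 0 were higher, which is near the share of all genes, and 2 were lower. Of 47 measured members, 7 were at least 2-fold higher, against 5.14% of all genes, and 10 lower, against 9.37%. The median was -0.39 over members and -0.15 over all genes. Fzd9 was 6.18-fold higher in the gate, Sfrp2 4.54-fold, Wnt8b 3.87-fold, Fzd4 3.00-fold, Wnt7a 2.50-fold and Wnt2b 2.21-fold. Frzb was higher in the gate by a log2 difference of 1.63.

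Axin2 was 3.07-fold lower in the E9.5 gate than in other GFP-positive cells, Fzd10 3.06-fold, Dkk3 2.38-fold, Dkk1 2.21-fold, Fzd6 2.13-fold, Sfrp1 2.10-fold, Wnt5b 2.07-fold and Tcf7 2.02-fold. Wnt8a was at least 2.15-fold and Wnt2 at least 2.06-fold lower. The 3 targets not counted, Lef1, Nkd1 and Notum, had differences of -0.73, -0.70 and -0.41. Of 60 other pathway genes, 4 were higher and 12 lower. Among them, of 8 other measured target genes, 1 was higher (Ccnd1, 2.16-fold) and 3 lower. The caudal homeobox gene Cdx4, a Wnt target, was 17.8-fold lower, the secreted antagonist Cer1 at least 12.9-fold, Rspo2 at least 12.3-fold, Rspo4 at least 4.98-fold and Apcdd1 4.66-fold, and the planar polarity cadherin Celsr2 was 7.87-fold higher.

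Since the slide also differed between these 2 arrays, slide and gate cannot be told apart. The array of other GFP-positive cells had the most spots above background of the 7. Of 6 endoderm markers 4 were lower in the gate, with summed levels of 0.48 against 1.99 and with Foxa1, Foxa2, Cdx2 and Shh not above background in the gate, and 4 of 6 renal stroma markers were lower, with summed levels of 4.29 against 5.08. Of 5 measured red cell markers 3 were lower (summed levels -0.43 against 3.25, with Gata1, Hba-x, Hbb-y and Ahsp not above background in the gate), and of 6 surface ectoderm markers 3 (6.13 against 6.50). Trp63 (6.01 against 6.19) made up most of the surface ectoderm sums. The 3 lower ones were Tfap2c (-3.21 against 1.30), Krt8 (-0.15 against 1.26) and Krt18 (1.98 against 3.54). The part of these marker sets in the result was not tested. Quantile normalization brought the median of all genes from -0.15 to -0.01 and the share of higher genes among those past 2-fold from 35.4% to 53.1%, and members to 7 higher and 8 lower. The second Wnt8b probe gave -1.0 where the probe used gave 1.95, and the second Axin2 probe -0.31 where the probe used gave -1.62.

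Against GFP-negative cells of E9.5, which hold the rest of the caudal embryo, the gate had more Frzb and less Wnt3 and Wnt3a. Neither Wnt3 nor Wnt3a was well above background in the gate. Of 47 measured members, 7 were higher, against 5.67% of all genes, and 7 lower, against 6.41%, with medians of -0.28 and 0.01. Frzb was 9.32-fold higher, Fzd4 4.83-fold, Wnt10b, a ligand of bone and mammary development, 2.88-fold, Fzd2 2.58-fold, Wnt8b 2.18-fold, Fzd1 2.11-fold and Wnt2b 2.08-fold. Second probes gave 0.20 for Fzd2 where the probe used gave 1.37, at least 0.54 for Wnt8b (1.12) and -0.60 for Axin2 (-1.59). Wnt3a was at least 8.90-fold lower, Wnt3 at least 5.24-fold, Fzd10 4.98-fold, Axin2 3.02-fold, Fzd6 2.86-fold, Fzd9 2.81-fold and Wnt8a at least 2.04-fold.

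Both arrays lay on the same slide, and the gate's array also served in the comparison with other GFP-positive cells, so the results are not independent. Of 60 other pathway genes, 3 were higher and 15 lower. Rspo1 was 20.3-fold higher. Cdx4 was 54.1-fold, Cer1 at least 46.8-fold, Cdx2 at least 23.7-fold, T at least 12.4-fold, Sp8 11.9-fold, the polarity cadherin Celsr3 9.23-fold, Rspo3 6.72-fold, Sp5 5.04-fold and Tnfrsf19 4.70-fold lower. Among these, Cdx2, Cdx4, T, Sp5 and Sp8 are regulators of the tail bud. Of 6 tail bud markers 5 were lower in the gate (summed levels 1.90 against 3.63, T and Dll3 not above background in the gate), of 6 neural tube markers 5 (0.38 against 4.76, Sox2 and Neurog2 not above background), and of 6 red cell markers 6 (-0.43 against 10.15). Their part in the result was not tested. With the deposited table left unscaled, the median of all genes was -0.18, 30.7% rather than 46.9% of genes past 2-fold were higher, and 4 and 9 members were higher and lower.

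In the metanephric mesenchyme of E11.5, gated cells were compared with the GFP-positive cells around them, on the same slide. Dkk1, Dkk3, Sfrp1 and Sfrp2 were lower in the gate, and Wnt8b was the member that stood highest above the other cells. Of 44 measured members, 6 were higher, against 10.5% of all genes, and 9 lower, against 9.42%, with medians of -0.06 and 0.15. Of 9 measured inhibitors, 4 were lower and 0 higher: Dkk1 at least 24.4-fold, Dkk3 at least 5.93-fold, Sfrp1 5.87-fold and Sfrp2 3.21-fold. The inhibitors Dkk4, Frzb, Sfrp5 and Sfrp4 had differences of 0.48, -0.15, -0.25 and, as a bound, -0.57, and Dkk2, just short of 2-fold, was higher.

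Fzd1 was 8.58-fold lower in the E11.5 gate, Wnt2b at least 3.30-fold, Nkd1 2.49-fold, Ror2, the Wnt5a receptor, 2.36-fold and Wnt16 2.10-fold. Wnt8b was 14.3-fold higher, Wnt9a 3.14-fold and Lef1 2.38-fold, and the receptors Fzd8, Fzd9 and Fzd6 were at least 3.15-fold, 2.50-fold and 2.30-fold higher. Second probes of these genes gave other values: 0.82 for Wnt8b (3.83 on the probe used), -0.06 for Lef1 (1.25), 0.62 for Nkd1 (-1.32) and 1.12 for Wnt16 (-1.07). The second probe of Ror1, not well above background in the gate, gave a bound of -3.89 where the probe used gave 0.04. Second probes also gave -2.13 for Fzd7 (-0.515), 1.37 for Lrp6 (-0.50) and a bound of 3.47 for Tcf7 (0.22). Those of Wnt1, Fzd2, Fzd5 and Axin2 lay within 1 log2 unit of the probe used. Lef1's probe used lies on mm9 chromosome 3 from 130907851 to 130926012, across introns, and its second from 130926200 to 130926259.

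Of 54 other pathway genes, 8 were higher and 9 lower at E11.5 in the gate. Rspo1 was 64.3-fold higher, Celsr2 13.2-fold, the kinesin Kif26b, which acts in the Wnt5a and Ror branch, 6.58-fold, Celsr1 6.09-fold, Rspo3 5.28-fold, Myc 4.78-fold and the co-repressor Tle4 4.46-fold. Dact1, a Dishevelled-binding protein, was 28.0-fold lower, the formin Daam2 18.5-fold, Cdx1 at least 5.89-fold and Vangl1 at least 5.10-fold. All 6 renal stroma markers were lower in the gate, with summed levels of 3.82 against 7.13, and 4 of 6 nephron progenitor markers were higher, and their part in the result was not tested. With the deposited table left unscaled, 35.3% rather than 52.7% of all genes past 2-fold were higher, the median of all genes was -0.06, and 5 and 10 members were higher and lower.

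Of the 43 members measured in the gate comparisons of both E9.5 and E11.5, which share no array, Wnt8b and Fzd9 were higher in both and Dkk1, Dkk3 and Sfrp1 lower in both. This holds for the probes used: the second Wnt8b probe gave -1.0 at E9.5 and 0.82 at E11.5. None of these genes stayed past 2-fold at both stages under every alternative processing, and the Fzd9 difference at E11.5 was a bound lost with normexp. Wnt2b, Fzd6 and Sfrp2 were past 2-fold on opposite sides. How many of all genes lay on the same side or on opposite sides at both stages was not counted. These overlaps are therefore not read as particular to the members. Axin2, Fzd10 and Tcf7 were lower in the gate at E9.5 and had differences of 0.82, 0.84 and 0.22 at E11.5. Second probes gave -0.31 at E9.5 and 0.80 at E11.5 for Axin2. For Tcf7 they gave -1.63 at E9.5 and, as a bound, 3.47 at E11.5.

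**Figure D3:**
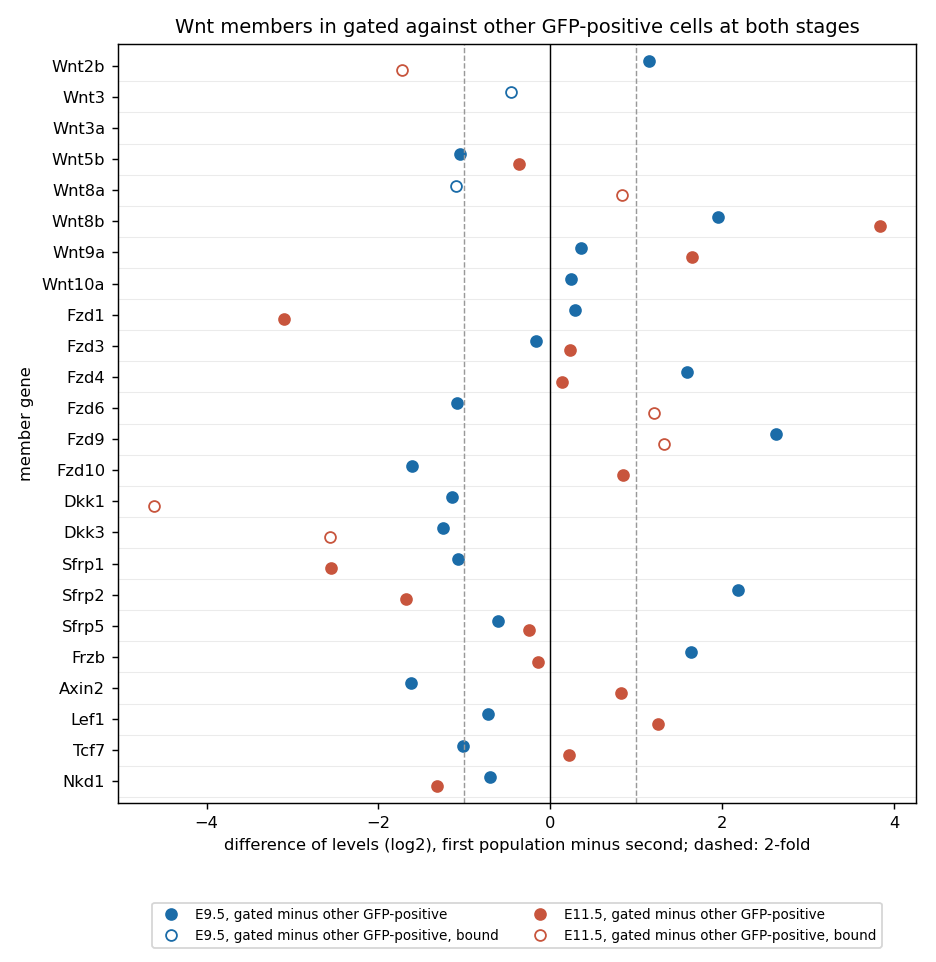
Difference of levels (log2) between gated and other GFP-positive cells at E9.5 (blue) and E11.5 (red) for the 24 members with a range of at least 4-fold, with open circles for bounds and dashed lines at 2-fold. On the probes used, Wnt8b and Fzd9 lie to the right and Dkk1, Dkk3 and Sfrp1 to the left at both stages, while the points of Sfrp2, Wnt2b and Fzd6 lie on opposite sides.

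Between stages, gated cells of E11.5 were set against gated cells of E9.5, which differ in the tissue dissected as well as in age. Many members were lower at E11.5. Of 44 measured members, 2 were higher, against 6.05% of all genes, and 15 lower, against 11.9%, with medians of -0.37 and -0.03. The lower ones were 4 of 16 ligands, 4 of 15 receptors, 5 of 8 inhibitors and 2 of 5 targets. Wnt2b was at least 21.8-fold lower, Dkk1 at least 14.5-fold, Dkk3 at least 7.60-fold, Frzb 6.56-fold, Fzd10 5.41-fold, Fzd9 4.57-fold and Tcf7 3.47-fold.

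Further members lower in E11.5 than in E9.5 gated cells were Fzd1 (2.93-fold), Sfrp2 (2.93-fold), Sfrp1 (2.69-fold), Wnt10b (2.47-fold), Nkd1 (2.36-fold), Fzd6 (2.34-fold), Wnt16 (2.02-fold) and Wnt10a (at least 2.45-fold). Wnt8b was 3.45-fold and Wnt9a 2.52-fold higher. The second Tcf7 probe gave 0.55 where the probe used gave -1.79, the second Nkd1 probe 0.04 against -1.24, the second Wnt8b probe 0.26 against 1.79 and the second Wnt16 probe 0.45 against -1.01. Of 56 other pathway genes, 6 were higher and 12 lower. Rspo3 was 12.5-fold higher. Sp8 was at least 12.0-fold, Cdx1 at least 10.5-fold, Daam2 9.14-fold, Cdx4 at least 8.51-fold, Dact1 7.71-fold, Vangl1 at least 5.66-fold, the R-spondin receptor Lgr5 at least 5.45-fold and Ccnd1 4.93-fold lower. The slide also differed between the gated arrays of E9.5 and E11.5, so slide and stage cannot be told apart, and 4 of 6 renal stroma and 4 of 6 surface ectoderm markers were lower at E11.5, whose part in the result was not tested. Quantile normalization moved the share of higher genes among those past 2-fold from 33.8% to 46.6%, and members to 3 higher and 12 lower.

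Outside the gate, E11.5 cells were set against E9.5 cells of the other GFP-positive population. Of 48 measured members, 2 were higher, against 6.36% of all genes, and 12 lower, against 22.1%, so the share of lower members (25%) was near the background. The medians were -0.29 over members and -0.36 over all genes. Fzd10 was 29.7-fold lower at E11.5, Tcf7 8.14-fold, Axin2 5.05-fold, Dkk2 3.24-fold, Dkk4 3.20-fold, Dkk3 3.05-fold, Wnt2b 2.99-fold and Lef1 2.27-fold. Wnt8a was at least 2.89-fold, Wnt2 at least 2.78-fold and Fzd8 at least 2.55-fold lower. Fzd6 was lower too, with a bound of -3.52 on its log2 difference. These lower members were 3 of 18 ligands, 3 of 15 receptors, 3 of 10 inhibitors and 3 of 5 targets. Sfrp2 was 4.98-fold and Fzd1 3.57-fold higher.

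The targets Axin2, Lef1 and Tcf7 were lower on their second probes as well, with differences of -1.48, -1.59 and, as a bound, -4.55. Of 60 other pathway genes, 4 were higher and 20 lower, among them 8 of 8 measured target genes. Cdx4 was at least 143-fold lower, Sp8 at least 18.2-fold, Rspo2 at least 16.5-fold, Cer1 at least 13.5-fold, Rspo1 9.37-fold, Rspo4 at least 7.46-fold, Apcdd1 6.54-fold and Sp5 6.30-fold. R-spondins, which enhance Wnt signalling, and antagonists such as Cer1 and Apcdd1 were both among them. Tle4 was 5.91-fold lower, Tnfrsf19 4.97-fold, Rnf43 at least 4.61-fold, Cdx2 at least 4.60-fold, Prickle2 4.53-fold and Myc 4.25-fold. Both arrays lay on the same slide. All 6 endoderm markers and 5 of 6 surface ectoderm markers were lower at E11.5 and 4 of 6 renal stroma markers higher, with summed endoderm levels of -1.98 against 1.99, and their part in the result was not tested. Quantile normalization brought the median of all genes from -0.36 to 0.00 and the share of higher genes among those past 2-fold from 22.3% to 53.9%, and members to 5 higher and 9 lower.

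The stage comparisons share arrays with the gate comparisons, so their values are set side by side and not counted as separate evidence. Of 44 members measured in both stage comparisons, 5 were lower at E11.5 in both (Wnt2b, Fzd6, Fzd10, Dkk3 and Tcf7) and 0 higher in both. The second Tcf7 probe gave 0.55 in gated cells and, as a bound, -4.55 in other GFP-positive cells. Fzd1 and Sfrp2 were lower in gated and higher in other GFP-positive cells. How many of all genes were lower or higher in both was not counted. Of all genes, 11.9% in gated and 22.1% in other GFP-positive cells were lower at E11.5, against 6.05% and 6.36% higher. More members lower than higher in both is thus not read as particular to the members.

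**Figure D4:**
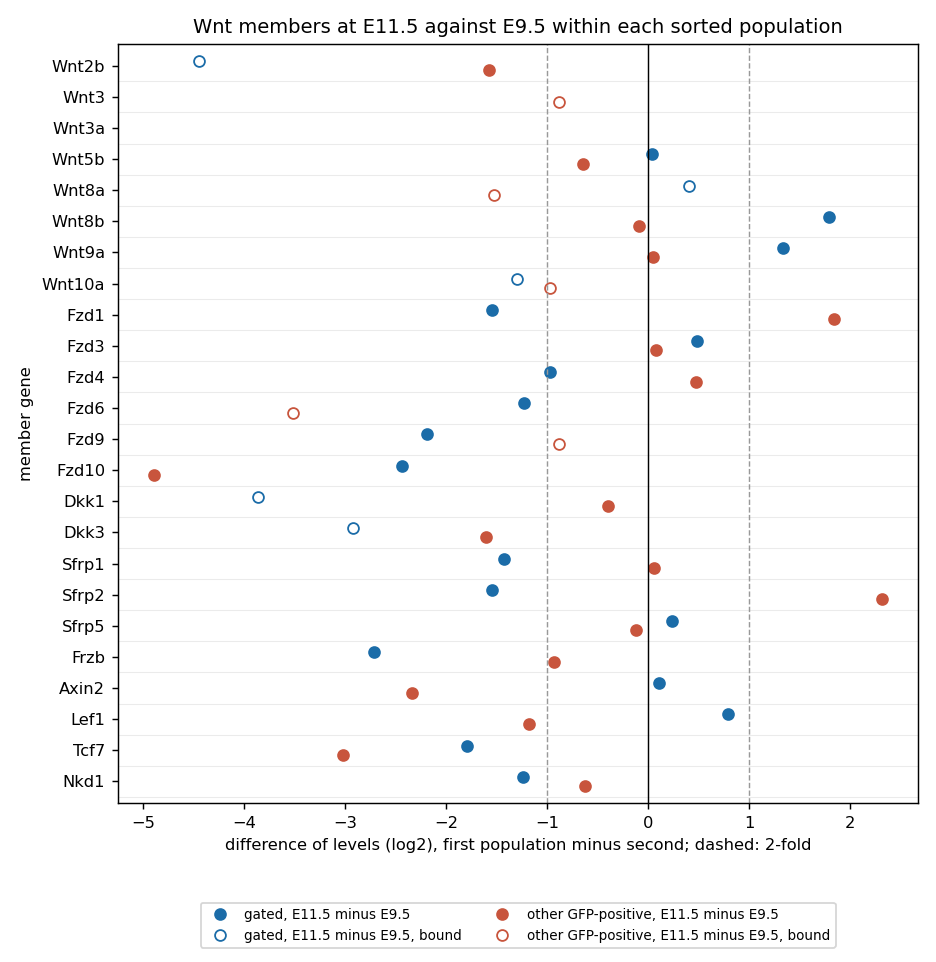
Difference of levels (log2) between E11.5 and E9.5 in gated cells (blue) and other GFP-positive cells (red) for the 24 members with a range of at least 4-fold, with open circles for bounds and dashed lines at 2-fold. On the probes used, Fzd10, Fzd6, Wnt2b, Dkk3 and Tcf7 lie to the left in both, and Fzd1 and Sfrp2 on opposite sides.

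Over the 6 comparisons, the share of members past 2-fold lay between 4.17% and 37.8% on the higher side and between 6.67% and 34.1% on the lower side. It was near the share of all genes for lower members at E8.5 (6.67% against 6.08%), for higher members in the E11.5 gate (13.6% against 10.5%), for lower members outside the gate between stages (25% against 22.1%) and for higher members in both stage comparisons. For the 12 members with 2 probes, 56 differences could be set side by side without a bound, of which 18 parted by at least 1 log2 unit and 10 had opposite signs with either past 2-fold.

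**Figure D5:**
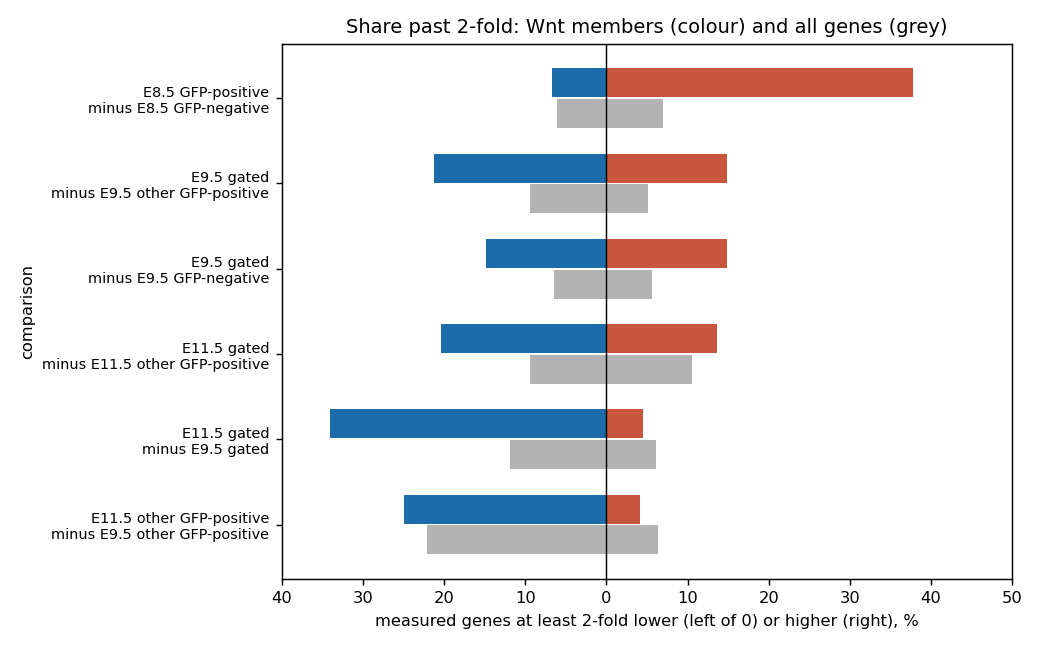
Share of measured genes at least 2-fold higher (right) or lower (left) in each of the 6 comparisons, in percent, for Wnt members (colour) and all genes (grey). The E8.5 comparison has the longest bar on the higher side (37.8% of members against 7.03% of genes), and the E11.5 against E9.5 gated comparison the longest on the lower side (34.1% against 11.9%).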

How the data were processed

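RNA of 7 sorted populations was amplified and hybridised to 1 single-colour (Cy3) Agilent array each, per the labels. Spot intensity was extracted by the authors using Feature Extraction software from Agilent, whose version the submitters' processing notes give as 10.7.3.1. This intensity is linear, background-subtracted and not scaled between arrays, per the file headers. The deposited value table holds the same intensity for all 62976 spots of every array, with column medians from 30.6 to 51.3. Levels on the log2 scale were computed here from the deposited signal as log2 signal less the log2 of each array's 75th percentile over its 59305 non-control spots. Spots with a flag were dropped, repeat spots of each probe averaged, and a probe needed a share of 0.5 of its spots well above background to count as such. Genes took their name from RefSeq by transcript accession (26425 probes) or else from the array files, and 20323 probes carried no name. Of several probes for a gene, the brightest on average across the 7 arrays stood for it. No member name differed between the RefSeq table and the array files. Probe positions are those of the array files (mm9), whose placement in exons or UTRs was not analysed here.

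With 1 array per population no test was run, and precision is limited by how few arrays there are. Members with a range of at least 4-fold are given with every value, and pathway genes outside the list from 4-fold in a comparison. Members, gene lists and rules were chosen with earlier results of these data known. Alternatives were quantile normalization, normexp background correction (offset 50), the deposited table without scaling, no filter on dim probes, both arrays above background, and the median over probes. No column of per-sample values was left unassigned. The steps from levels to differences were tested on simulated data. Python 3.11.15, pandas 2.3.3, numpy 2.4.6, matplotlib 3.10.9, R 4.3.3 and limma 3.58.1 were used.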

Additional observations from a re-analysis of the deposited data

Results flagged for a closer look

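A few members lay past 2-fold on opposite sides in a pair of comparisons of the same kind, and with 1 array per population the difference between the comparisons was not tested. Between gated and other GFP-positive cells, Wnt2b had a log2 difference of 1.14 at E9.5 and of -1.72 at E11.5, the second a bound. Sfrp2 had 2.18 at E9.5 and -1.68 at E11.5. Fzd6 had -1.09 at E9.5 and 1.20, a bound, at E11.5. The E9.5 arrays of this pair lay on different slides and the E11.5 arrays on the same slide.

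Between E11.5 and E9.5, Fzd1 had a difference of -1.55 in gated and 1.84 in other GFP-positive cells, and Sfrp2 had -1.55 in gated and 2.32 in other GFP-positive cells. The Sfrp2 values of the stage and gate comparisons rest on the same 4 arrays and are not independent.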

How the results depend on the processing

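Of the 81 differences past 2-fold among the 24 widely varying members, none changed sign under any of the 6 alternatives. These 24 were chosen by their range on the same arrays and probes, which favours large differences. Differences past 2-fold of the other members, such as Ror2, Fzd7 and Ryk at E8.5, are not part of the 81. The 17 at E8.5 below are differences in either direction among the 24, and not the 17 members higher there. Of the 81, 73 stayed past 2-fold with quantile normalization, 43 with normexp, 76 with the unscaled table and 72 with the median over probes. All 81 stayed with no filter, and 64 of the 64 measured on both sides. Both outcomes were fixed in advance, since removing a bound can only keep or widen a difference and the 64 kept their values. No alternative used the second probe alone, and some of its signs were opposite. It gave -1.0 for Wnt8b in the E9.5 gate (1.95 on the probe used) and -0.44 for Axin2 at E8.5 (1.51). For Nkd1 in the E11.5 gate it gave 0.62 (-1.32), and for Tcf7 between gates 0.55 (-1.79). Past 2-fold under each alternative that gave a value were, at E8.5, 10 of 17 (Wnt5b, Fzd1, Fzd9, Fzd10, Dkk1, Sfrp1, Sfrp2, Sfrp5, Frzb and Lef1), in the E9.5 gate 5 of 15 (Fzd4, Fzd9, Fzd10, Sfrp2 and Frzb), against GFP-negative cells 6 of 12 (Wnt3a, Fzd4, Fzd9, Fzd10, Frzb and Axin2), in the E11.5 gate 5 of 12 (Wnt8b, Fzd1, Dkk1, Sfrp1 and Sfrp2), between gates 7 of 15 (Wnt2b, Wnt8b, Fzd1, Fzd10, Dkk1, Sfrp2 and Frzb) and outside the gate 6 of 10 (Fzd1, Fzd6, Fzd10, Sfrp2, Axin2 and Tcf7). Counts over the 49 members fell most with normexp, whose offset adds 50 to each signal and so shrinks differences of dim probes: at E8.5 to 11 higher and 1 lower, in the E9.5 gate to 2 lower, against GFP-negative cells to 4 higher and 4 lower, in the E11.5 gate to 1 higher and 4 lower, between gates to 1 higher and 7 lower, and outside the gate to 4 lower. Quantile normalization gave 5 higher outside the gate between stages, and the unscaled values left 4 higher against E9.5 GFP-negative cells. With both arrays required above background, fewer members were counted: 1 lower at E8.5, 4 lower against E9.5 GFP-negative cells and 3 higher in the E11.5 gate. With 1 array per population there was no replicate to leave out. No paired analysis was possible because the labels carry no replicate numbers for the groups to share. A fit of stage and gate together over the 4 later GFP-positive arrays was not run. The spread between embryos and sorts is unknown.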
